A study of Bos taurus with 6 samples.

Results

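The myosin light chains and the skeletal muscle kinase that phosphorylates them were followed in longissimus dorsi, a back muscle of cattle. The genes asked for were MYL1, MYL2, MYL3, MYL4, MYL6, MYL6B, MYL9, MYLPF and MYLK2, and a probe set was taken where the platform annotation gave it exactly 1 gene. Of these 9 genes 8 had a probe set, and 9 of 24016 probe sets on the array, controls not counted, were theirs. MYLPF is listed in the annotation under its current symbol MYL11 and was found through its gene identifier in the RefSeq table, with 2 probe sets. The other 7 genes had 1 probe set each under their own symbols, and MYL9, the regulatory chain of smooth muscle, was not measured here because none was annotated to it. The breeds compared were Japanese Black, a beef breed known for fat within the muscle, with 3 steers, and Holstein, a breed kept mainly for milk, with 3 steers. A steer is a castrated male, all 6 animals had received energy-rich feed, and each array held the total RNA of 1 animal. Ages were not used here. There was no group on a different feed among the animals analysed.

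Myosin is the motor of the thick filament. Each of its heavy chains ends in a head on a lever arm, and the arm is stiffened by an essential and a regulatory light chain. Skeletal muscle builds its fast fibres with the essential chain MYL1 and the regulatory chain MYLPF, and its slow fibres with the essential chain MYL3 and the regulatory chain MYL2, which the heart ventricle also uses. MYL4 is the essential chain of the embryonic muscle and of the atrium, MYL6B is an essential chain known from slow muscle and from non-muscle cells, and MYL6 is the essential chain of smooth muscle and non-muscle cells. MYLK2 is the calcium and calmodulin dependent kinase of skeletal muscle that phosphorylates regulatory light chains, which adjusts the force of contraction.

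Values are the deposited signals in linear intensity units, and log2 differences are given as Japanese Black minus Holstein after 16 was added to every signal, which understates changes of dim probe sets. Because probes differ in how well they bind, the signal of a probe set was compared between animals and levels were not ranked between genes. In bulk tissue, fewer cells of a type and less RNA per cell cannot be told apart. Across the arrays the median signal lay between 48.5 and 54.7, and it was highest in Japanese Black 3. The upper quartile of that array was 205, against 172 to 181 in the other animals. The highest signal of an array was 22468 in Holstein 3, from the actin gene ACTC1, and between 16534 and 17450 in the other animals. The 8 skeletal muscle fibre markers on the array summed to between 92603 and 97935 in Japanese Black and between 97526 and 98605 in Holstein, with 0 markers at 0 in any animal. Taken singly, 1 marker (ACTA1) was higher and 2 (CKM and ACTN2) were lower in Japanese Black without overlap. Over all probe sets tested these shares were 11.0% and 8.84%. The 3′ to 5′ signal ratio of the actin control, a sign of RNA or labelling quality, was between 1.11 and 1.14 in Japanese Black and between 1.003 and 1.07 in Holstein, so it separated the breeds. The same ratio of the GAPDH control overlapped, with 0.858 to 0.928 in Japanese Black and 0.796 to 0.884 in Holstein. The part of either ratio in the results below was not tested. Nothing in the labels says whether the animals were related, and precision is limited by having 3 arrays per breed.

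Among the 9 probe sets the largest breed differences were at MYL3, which read lower in Japanese Black, and at MYL6B, which read higher. MYL2 read slightly higher in Japanese Black, whereas the 95% intervals of both fast chains, MYL4, MYL6 and MYLK2 included 0. In limma with Benjamini-Hochberg adjustment over 18012 probe sets, 0 of the 9 probe sets passed an adjusted p of 0.05, against 3 probe sets or 0.0167% of all tested. The adjusted p of the 9 lay between 0.287 and 0.998. At an unadjusted p under 0.05 there were 3 of the 9 (MYL3, MYL6B and MYL2), against 12.6% of all probe sets. The breeds did not overlap at 4 of the 9, 3 higher and 1 lower in Japanese Black, against 19.8% of all probe sets, of which 11.0% were higher and 8.84% lower. All 9 were above the limit on dim probe sets, 5 had a positive and 4 a negative log2 difference, and their median was 0.06 against 0.01 over all probe sets tested.

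**Figure D1:**
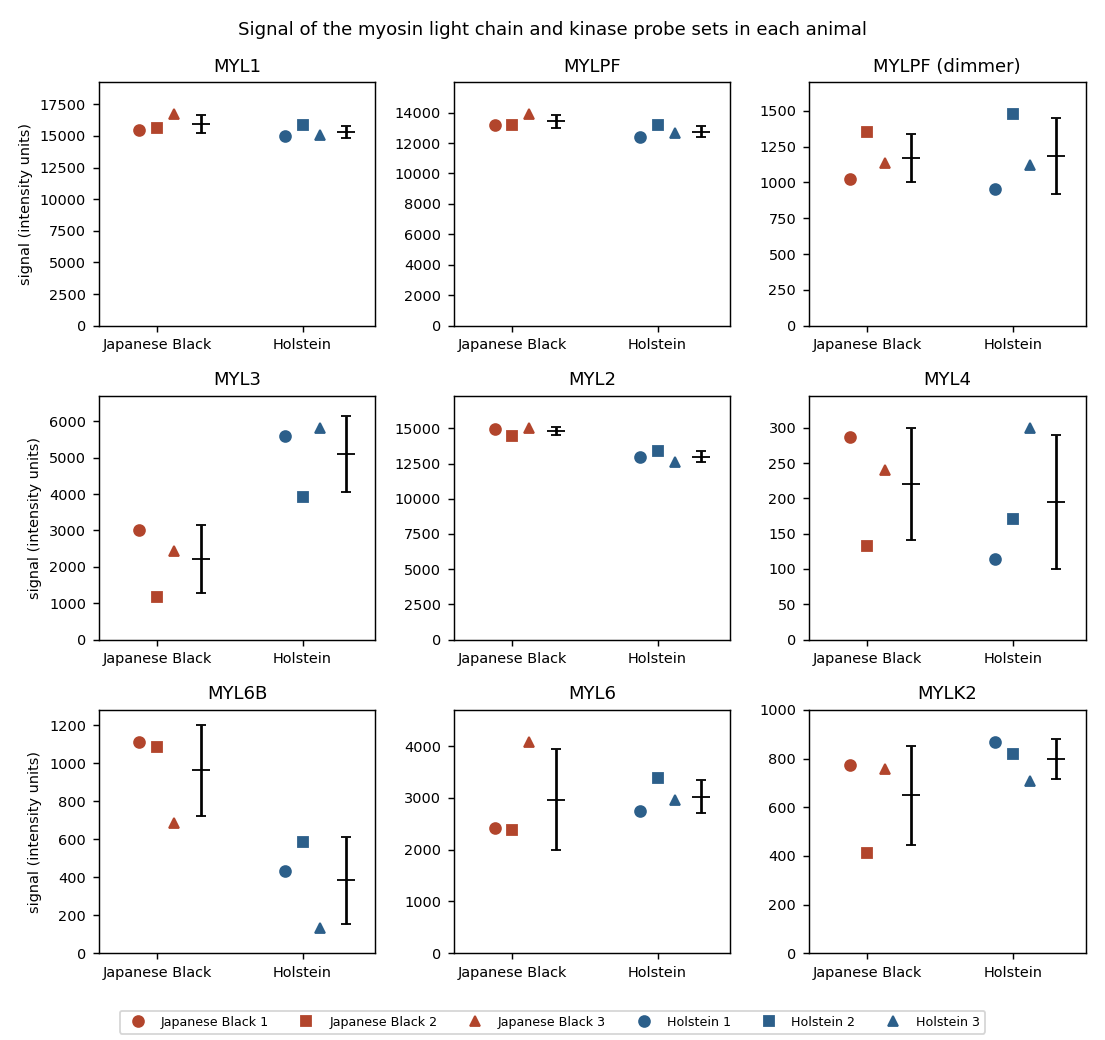
Signal in intensity units (y axis, from 0, scaled for each panel) of the 9 light chain and kinase probe sets in the 3 Japanese Black and 3 Holstein animals; symbols mark the animals and black bars the mean ± SD of each breed. MYL3 lies lower and MYL6B higher in every Japanese Black animal than in any Holstein animal, and MYL1, near the top of the scale, spans 15004 to 16719.

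MYL3, the essential light chain of slow fibres and of the ventricle, had signals of 3003, 1172 and 2447 in Japanese Black 1, 2 and 3, against 5590, 3917 and 5822 in Holstein 1, 2 and 3. All Japanese Black animals were below all Holstein animals, and the lowest animals of the breeds were Japanese Black 2 and Holstein 2. The means were 2207 ± 939 in Japanese Black and 5110 ± 1039 in Holstein (SD, n = 3 each). This was a log2 difference of -1.29 (SE 0.32, 95% interval -2.01 to -0.57), or a 2.44-fold lower level, with a limma adjusted p of 0.287. Of all probe sets tested, 0.427% had a larger difference in either direction. Without Japanese Black 2 the difference was -0.89, and over the 6 fits that each leave out 1 animal it lay between -1.56 and -0.89 with adjusted p between 0.169 and 0.633.

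MYL2, the regulatory chain that sits beside MYL3 on the slow and ventricular heavy chain, had signals of 14921, 14467 and 15034 in Japanese Black 1, 2 and 3, against 12968, 13372 and 12580 in Holstein 1, 2 and 3. The breeds did not overlap and the animals within a breed lay close together, with means of 14807 ± 300.03 in Japanese Black and 12973 ± 396 in Holstein (SD, n = 3 each). Between the breeds the log2 difference was 0.19 (SE 0.08, 95% interval 0.01 to 0.38), with a limma adjusted p of 0.392. Its unadjusted limma p was under 0.05 (0.0443) but was 0.204 without the intensity trend. In the plain unpaired test, made without limma, its p was 0.0033 and its adjusted p 0.385. The unadjusted p of MYL2 thus depended on the variance model in both directions. The slow regulatory chain therefore read in the opposite direction to the slow essential chain, and the difference between the 2 was not tested. The signal of MYL2 stood at 55.99 to 86.2% of the highest signal of its array, and whether differences are compressed there was not tested. The low end of that range was in Holstein 3, where the highest signal was the 22468 of ACTC1. Without Holstein 3, the animal with the lowest MYL2 signal, the difference was 0.17.

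MYL6B, an essential chain described in slow muscle and non-muscle cells, had signals of 1115, 1087 and 687 in Japanese Black 1, 2 and 3, against 433 in Holstein 1, 585 in Holstein 2 and 133 in Holstein 3. Every Japanese Black animal was above every Holstein animal, with a narrow gap between Japanese Black 3 and Holstein 2. The means were 963 ± 239 in Japanese Black and 384 ± 230 in Holstein (SD, n = 3 each). Japanese Black exceeded Holstein by a log2 difference of 1.48 (SE 0.46, 95% interval 0.44 to 2.52), a 2.79-fold higher level, with a limma adjusted p of 0.321. The size depended on Holstein 3: without this animal it was 0.88 with an adjusted p of 0.602, and without Holstein 2 it was 1.89 with an adjusted p of 0.163. Holstein 3 also stood apart as an array, with a bioB hybridisation control of 471 against 245 to 309 in the other animals, 372 probe sets at 0 against 247 to 319, and the lowest 3′ to 5′ ratio of actin (1.003), and the part of this in the MYL6B difference was not tested. With offsets of 64 and 1 in place of 16 the difference was 1.33 and 1.54.

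MYL3 and MYL6B stood in opposite order between the breeds but not strictly from animal to animal. Holstein 3 had the highest MYL3 and the lowest MYL6B signal, while Japanese Black 2, the lowest for MYL3, was second to Japanese Black 1 for MYL6B. The log2 signal of MYL6B minus that of MYL3 within an array was -1.42, -0.11 and -1.81 in Japanese Black 1, 2 and 3, against -3.64, -2.71 and -5.29 in Holstein 1, 2 and 3. These values have a meaning only relative to each other, since they also hold the difference between the probes. Their means were 2.77 apart. That the breeds do not overlap here follows from the separation at each gene, and since the pair was picked for its differences no test was made of it.

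**Figure D2:**
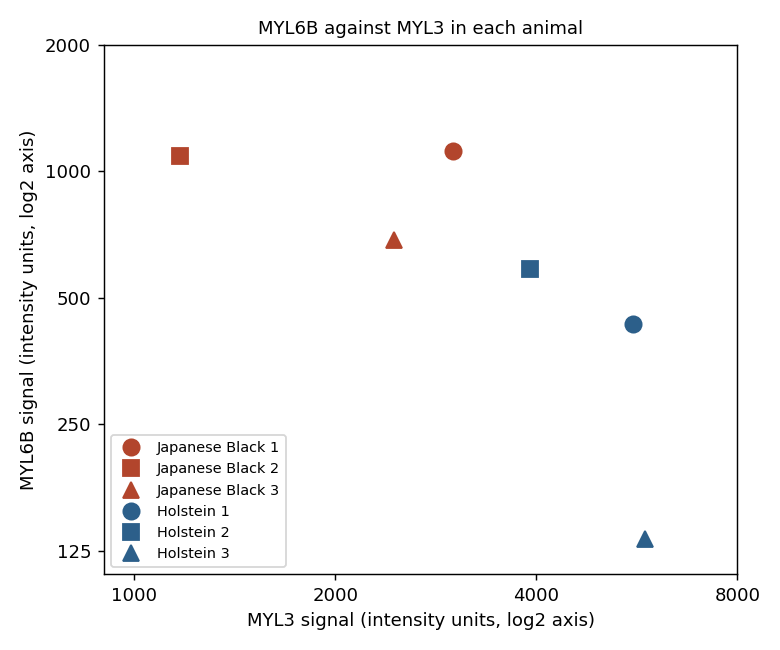
MYL6B signal (y axis) against MYL3 signal (x axis), both in intensity units on log2 axes, with 1 point for each of the 6 animals. The Japanese Black animals lie at upper left, with MYL3 at or below 3003 and MYL6B at or above 687, and the Holstein animals at lower right.

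Neither fast chain passed the test, and their bright probe sets lay near the top of the scale. MYL1, the essential chain of fast fibres, had signals of 15426, 15626 and 16719 in Japanese Black 1, 2 and 3, against 15004, 15860 and 15031 in Holstein 1, 2 and 3. The breeds overlapped, since Holstein 2 was above Japanese Black 1 and 2, and the highest animal was 1.11 times the lowest. The log2 difference was 0.06 (SE 0.08, 95% interval -0.13 to 0.24) with a limma adjusted p of 0.782, and after quantile normalization it was -0.0029.

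MYLPF, the regulatory partner of MYL1 in fast fibres, had signals at its brighter probe set of 13210, 13165 and 13901 in Japanese Black 1, 2 and 3, against 12426, 13154 and 12673 in Holstein 1, 2 and 3. Japanese Black 2 and Holstein 2 were almost level, and the breeds were separated only by that small gap. The log2 difference was 0.07 (SE 0.08, 95% interval -0.11 to 0.26) with a limma adjusted p of 0.715. At the dimmer MYLPF probe set the signals were 1026, 1350 and 1135 in Japanese Black 1, 2 and 3, against 956, 1476 and 1119 in Holstein 1, 2 and 3, so the breeds overlapped. Its difference was -0.0020 (95% interval -0.44 to 0.43) with an adjusted p of 0.998, and the order of the animals there was not that of the brighter probe set. MYL1 reached 66.9 to 95.9% and the brighter MYLPF probe set 56.4 to 79.7% of the highest signal of the array. Both low ends were in Holstein 3, where ACTC1 gave the highest signal.

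MYL4, the essential chain of embryonic and atrial muscle, had signals of 288, 133 and 241 in Japanese Black 1, 2 and 3, against 114, 171 and 300.1 in Holstein 1, 2 and 3. Both breeds held high and low animals, and they overlapped over nearly the whole range. Between the breeds the log2 difference was 0.20 (SE 0.36, 95% interval -0.61 to 1.01) with a limma adjusted p of 0.829. Its sign turned when Holstein 1 (-0.10) or Japanese Black 1 (-0.014) was left out, and it grew when Japanese Black 2 (0.50) or Holstein 3 (0.54) was.

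MYL6, the essential chain of smooth muscle and non-muscle cells, had signals of 2427, 2378 and 4086 in Japanese Black 1, 2 and 3, against 2746, 3376 and 2951 in Holstein 1, 2 and 3. Japanese Black held both the highest and the lowest animal, so the Holstein range lay inside that of Japanese Black. The log2 difference was -0.07 (SE 0.21, 95% interval -0.55 to 0.41) with a limma adjusted p of 0.905, and leaving out Japanese Black 3 gave -0.32 and leaving out Japanese Black 2 gave 0.064. MYL6 and MYL6B are neighbours in assembly ARS-UCD2.0, with 0 genes between them, yet Japanese Black 3 had the highest MYL6 signal and the lowest MYL6B signal of its breed. The 10 smooth muscle and pericyte markers on the array summed to 4701, 4403 and 13676 in Japanese Black 1, 2 and 3, against 5337, 9925 and 6243 in Holstein 1, 2 and 3. Japanese Black 3 and Holstein 2 were highest in their breeds for this sum, in which ACTA2 was the brightest marker, and for MYL6. Among the 10 markers taken singly, Japanese Black 3 was the highest of its breed for 8 and Holstein 2 for 6. Japanese Black 3 was also the array with the highest median (54.7) and upper quartile (205) of all signals. After quantile normalization the MYL6 difference was -0.14. The parts of the markers and of array brightness in the MYL6 signal were not tested. None of these markers was at 0 in any animal, and the log2 differences of 3 were positive and of 7 negative, with a median of -0.12.

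MYLK2, the light chain kinase of skeletal muscle, had signals of 775, 413 and 758 in Japanese Black 1, 2 and 3, against 870, 820 and 707 in Holstein 1, 2 and 3. Japanese Black 2 stood below all other animals and the breeds overlapped. The means were 649 ± 204 in Japanese Black and 799 ± 83.2 in Holstein (SD, n = 3 each). The log2 difference was -0.34 (SE 0.24, 95% interval -0.89 to 0.21) with a limma adjusted p of 0.560. Without Japanese Black 2 it was -0.054.

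**Figure D3:**
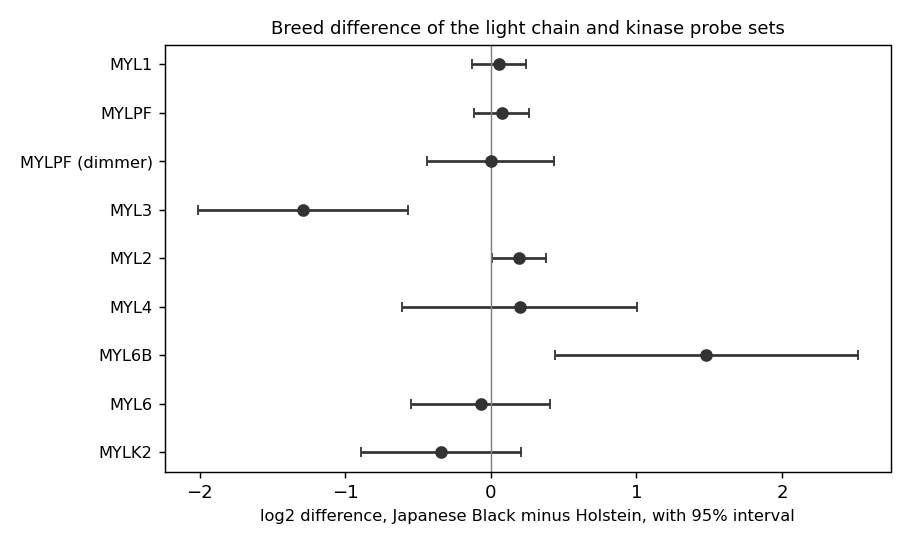
Log2 difference of Japanese Black minus Holstein (x axis, log2 of signal + 16) for the 9 probe sets, with limma's 95% intervals. The intervals of MYL3, MYL2 and MYL6B leave out 0 before adjustment for the number of probe sets, and those of the other probe sets include it.

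**Figure D4:**
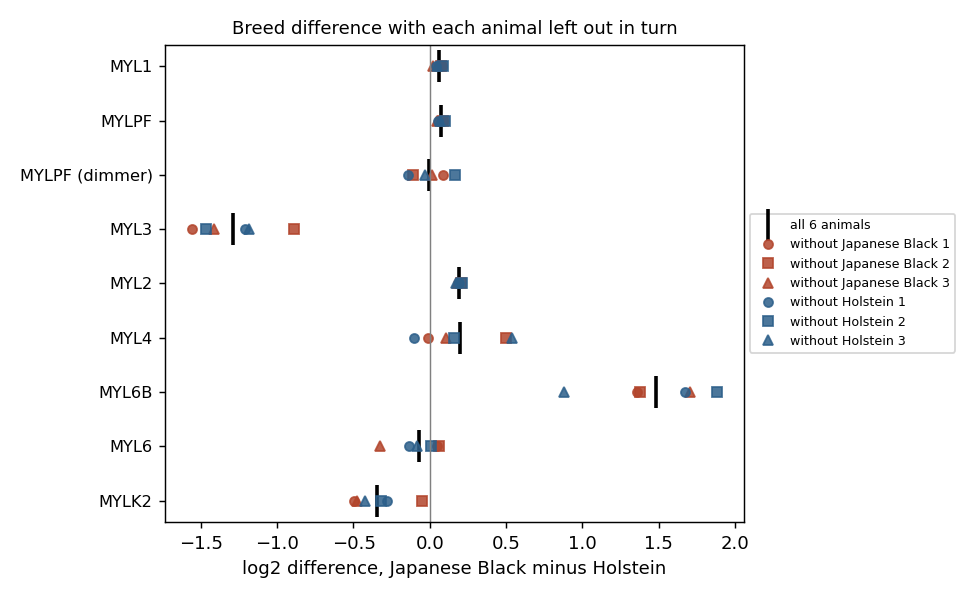
Log2 difference of Japanese Black minus Holstein (x axis) for each probe set with all 6 animals (black bar) and with each animal left out in turn (symbols). MYL3 stays between -1.56 and -0.89 and MYL6B between 0.88 and 1.89, while MYL4, MYL6 and the dimmer MYLPF probe set lie on both sides of 0.

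The light chains also differed in how much they varied within a breed. The SD was 4.37% of the mean in Japanese Black and 3.18% in Holstein for MYL1, and 2.03% and 3.05% for MYL2. For MYL3 it was 42.5% of the mean in Japanese Black and 20.3% in Holstein, and for MYL6B 24.9% and 59.9%. MYL4 had 36.01% in Japanese Black and 48.8% in Holstein. From the lowest to the highest animal of both breeds the signal ranged 8.36-fold for MYL6B, 4.97-fold for MYL3, 2.62-fold for MYL4 and 2.11-fold for MYLK2. The same range was 1.20-fold for MYL2 and 1.12-fold for the brighter MYLPF probe set, against 1.54-fold for its dimmer one, where the SD was 14.1% of the mean in Japanese Black and 22.5% in Holstein. MYL1, MYL2 and the brighter MYLPF probe set, which had the smallest spread, are those near the top of the scale.

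Genes that set or remove light chain phosphorylation were measured through 11 of 24 listed genes. Calmodulin carries the calcium signal to the kinases, and a phosphatase with a PP1 catalytic subunit removes the phosphate, held in check by RHOA and its kinases. Of these 11 genes 0 passed an adjusted p of 0.05, 7 had a positive and 4 a negative log2 difference, and the median was 0.16. The breeds did not overlap at 3 of the 11, all higher in Japanese Black, against 11.0% higher and 19.8% in either direction over all probe sets. PPP1CC, a PP1 catalytic subunit, read 2174, 2266 and 2472 in Japanese Black 1, 2 and 3, against 1854, 1763 and 1566 in Holstein 1, 2 and 3, a log2 difference of 0.41 (SE 0.13, limma adjusted p 0.325). PPP1CB, the PP1 subunit of the myosin phosphatase, read 4488, 4402 and 4580 in Japanese Black 1, 2 and 3, against 3876, 4230 and 2510 in Holstein 1, 2 and 3. Its difference was 0.38 (SE 0.19, adjusted p 0.435), and Holstein 3 stood apart below the rest. CALM3, a calmodulin gene, read between 3237 and 3357 in Japanese Black and between 2568 and 2848 in Holstein, a difference of 0.27 (SE 0.11, adjusted p 0.383). CAMK2D, a calmodulin dependent kinase, had a difference of 0.24 (SE 0.17, adjusted p 0.551) with overlapping breeds.

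The smooth muscle kinase MYLK, named here after its values were seen, read 1070, 992 and 2734 in Japanese Black 1, 2 and 3, against 1106, 2148 and 1229 in Holstein 1, 2 and 3. Japanese Black 3 and Holstein 2 were again the highest of their breeds, as for the summed smooth muscle markers, and the log2 difference was -0.0019 (SE 0.39, limma adjusted p 0.999). Among 5 further light chain genes listed, MYL12A, a regulatory chain of non-muscle cells, had a probe set. It read 9142, 11454 and 11675 in Japanese Black 1, 2 and 3, against 12262, 11578 and 13200 in Holstein 1, 2 and 3, so the breeds overlapped, with a difference of -0.21 (SE 0.12, adjusted p 0.484).

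**Figure D5:**
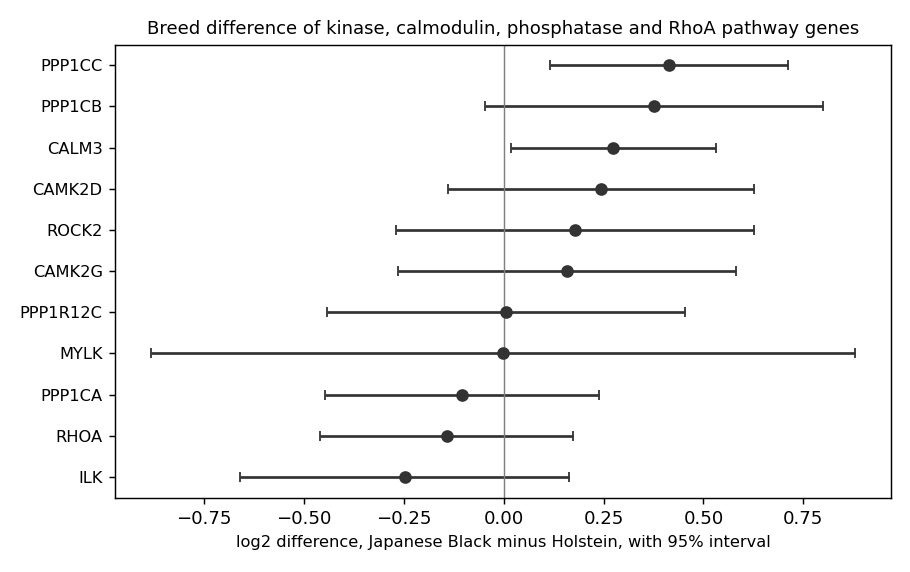
Log2 difference of Japanese Black minus Holstein (x axis, log2 of signal + 16) with limma's 95% intervals for the 11 measured genes of light chain phosphorylation. PPP1CC, PPP1CB and CALM3 have the largest values, at 0.41, 0.38 and 0.27, and MYLK has the widest interval.

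The heavy chains, to which the light chains bind, showed no difference past the threshold at any of 7 measured genes, with 3 positive and 4 negative differences and a median of -0.03. MYH7, the slow heavy chain that carries MYL3 and MYL2, read 14722, 13074 and 15152 in Japanese Black 1, 2 and 3, against 13780, 13505 and 13542 in Holstein 1, 2 and 3. Its breeds overlapped, with a log2 difference of 0.07 (SE 0.09, limma adjusted p 0.756). Its signal stood at 60.3 to 86.8% of the highest signal of the array, near the top of the scale, where whether differences are compressed was not tested. The low end was again in Holstein 3, where ACTC1 gave the highest signal. MYH10 and MYH9, heavy chains of non-muscle cells, had differences of 0.35 and -0.25 with overlapping breeds. MYH3, the embryonic heavy chain, read 286, 286 and 259 in Japanese Black 1, 2 and 3, against 416, 292 and 290.2 in Holstein 1, 2 and 3, a difference of -0.23 (SE 0.19, adjusted p 0.602). Only at MYH3, 1 of the 7, did the breeds not overlap, against 8.84% lower and 19.8% in either direction over all probe sets.

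Other genes of slow fibres were read beside MYL3 and MYL2. Of 9 measured slow fibre genes 8 had a positive and 1 a negative log2 difference, the median was 0.06 and 0 passed. The negative one was LMCD1, a LIM protein that regulates calcineurin signalling, with signals of 1169, 3040 and 788 in Japanese Black 1, 2 and 3, against 4953, 1943 and 6619 in Holstein 1, 2 and 3. Its difference was -1.49 (SE 0.54, limma adjusted p 0.349) with overlapping breeds. LMCD1 was highest in Japanese Black 2, Holstein 1 and Holstein 3, the animals in which the actin gene ACTC1 was also high. MYOZ2, a Z-disc protein of slow fibres, TPM3, the slow tropomyosin, and FHL1, a LIM protein, had differences of 0.25, 0.30 and 0.10. The breeds did not overlap at 2 of the 9, both higher in Japanese Black, against 11.0% higher over all probe sets. FHL1 read 14533 to 15663 in Japanese Black and 13958 to 14409 in Holstein. TNNC1, the slow troponin C, read 17139 to 17450 and 16534 to 16797, and was the highest signal of every array except Holstein 3.

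Among 8 measured fast fibre genes 4 had a positive and 4 a negative log2 difference, with a median of 0.01, and 0 passed. ACTN3, the actinin of fast fibres, read 8456, 8332 and 9129 in Japanese Black 1, 2 and 3, against 10690, 10596 and 11589 in Holstein 1, 2 and 3. The breeds did not overlap, and the difference was -0.34 (SE 0.09, limma adjusted p 0.310). ACTN2, another actinin, taken from the skeletal muscle fibre markers after its values were seen, also read lower in every Japanese Black animal. Its difference was -0.53 (SE 0.11, adjusted p 0.236). TNNC2, the fast troponin C, had a difference of 0.09 and higher values in every Japanese Black animal. TPM1 and MYOZ1 had differences of 0.19 and -0.06 with overlapping breeds.

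Genes of developing or regenerating fibres were read beside MYL4. Of 10 on the array 7 were bright enough to be tested, 1 had a positive and 6 a negative log2 difference, the median was -0.23 and 0 passed. The breeds did not overlap at 1 of the 7, MYH3, which was lower in Japanese Black, against 8.84% lower over all probe sets. ACTC1, the cardiac actin that is also made in developing muscle, read 850, 9941 and 835 in Japanese Black 1, 2 and 3, against 10340, 713 and 22468 in Holstein 1, 2 and 3. Japanese Black 2, Holstein 1 and Holstein 3 were thus far above the others, a split that crosses the breeds, and its difference was -1.51 (SE 1.28, limma adjusted p 0.626). MYL4 did not share that order, since Japanese Black 2 and Holstein 1 were the lowest of their breeds for it. MYOG, a myogenic transcription factor, had a difference of -0.65 (SE 0.31, adjusted p 0.426), and TNNT2, the cardiac troponin T also found in embryonic muscle, one of -0.25.

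Patterns over the animals were then compared with 8049 other genes, as Pearson's r of log2 signals over the 6 arrays. With so few arrays high values are common: 29 genes had an r above 0.95 with MYL3, 74 with MYL6B, 56 with MYL2 and 5 with MYLK2. The arrays also share the breed split, so r is a description only. Closest to MYL3 were SEPTIN4, a septin (r 0.996), THBD, the thrombomodulin of endothelial cells (0.991), and CD300LG (0.989). THBD read 428, 271 and 436 in Japanese Black 1, 2 and 3, against 659, 532 and 645 in Holstein 1, 2 and 3. The 9 endothelial markers on the array summed to 2708, 1996 and 3037 in Japanese Black 1, 2 and 3, against 3340, 2806 and 3507 in Holstein 1, 2 and 3. In this sum, as for MYL3, Japanese Black 2 and Holstein 2 were the lowest of their breeds, but the breeds overlapped. Japanese Black 2 was also the lowest of its breed in the smooth muscle, fibroblast, leukocyte and erythrocyte sums, where Holstein 2 was not the lowest. In the skeletal muscle and adipocyte sums neither animal was the lowest. The endothelial markers VWF, KDR and TIE1 read 14.2 to 39.5, below the median signal of every array. Among the 9 markers taken singly, Japanese Black 2 was the lowest of its breed for 9 and Holstein 2 for 5. The log2 differences of 8 of the 9 markers were negative, with a median of -0.30. None was at 0 in any animal, 0 passed, and the part of the endothelial signal in the MYL3 difference was not tested.

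Closest to MYL6B were RNASEH2A, a ribonuclease subunit (r 0.993), TAB2, an adaptor of kinase signalling (0.991), and OTUD4, a deubiquitinase (0.991). All of these had their lowest signal in Holstein 3, as MYL6B did. RNASEH2A was dim, at 17.8 to 26.9 and below the median signal of every array, and its log2 difference was 0.17. OTUD4 read 1139, 1087 and 985 in Japanese Black 1, 2 and 3, against 797, 927 and 615 in Holstein 1, 2 and 3. Closest to MYL2 were THY1, a surface glycoprotein (r 0.989), ARFGEF1 (0.989) and UNC93A (0.989). Closest to MYL6 were GNB1, a G protein subunit (r 0.993), ATP5F1A, a subunit of ATP synthase (0.992), and NDUFA12, a subunit of respiratory complex I (0.991), with the highest signals in Japanese Black 3. Closest to MYL1 were MYCBP2 (r 0.997), LOC505600 (0.997) and ISCU, an iron-sulphur cluster scaffold (0.996), to MYLPF WDR19 (0.992), TTC1 (0.986) and HEBP2 (0.985), and to MYL4 CLPP, a mitochondrial protease (0.987), MSH6, a mismatch repair protein (0.976), and ARSA, a lysosomal sulphatase (0.974). Closest to MYLK2 were ACOX2 (r 0.984), RNASEK (0.961) and COL15A1, a basement membrane collagen (0.956), which were lowest in Japanese Black 2.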

How the data were processed

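Per the labels' protocols, biotin-labelled cRNA was made from the total RNA of each animal by the Affymetrix protocol, for 1 array each. Per the submitters' processing notes the tools were Affymetrix Expression Console 1.1 and GCOS 1.1.1. The sources do not state how probes were summarised or scaled, and a genome build is not given in the sources used here. All deposited values are linear intensity, never negative. Detection calls were not used here. After 112 control probe sets were left out, 24016 remained; log2(intensity + 16) was taken and the dimmest 25% by mean were left out, which left 18012. An unpaired, two-sided limma fit (version 3.58.1, R 4.3.3; lmFit, then eBayes with intensity trend) gave p-values, adjusted by Benjamini-Hochberg over the 18012 probe sets, with a threshold of 0.05. The fit was first tested on simulated data. The series design names a paired test, but no label gives the pairs, so all 6 matchings were run as alternatives. Others were offsets, filters, normalization, variance models and leaving out each animal.

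Each light chain and kinase gene was named at every probe set. Listed genes were represented by their brightest probe set, and up to 4 genes per list were named by smallest p, as were the 3 genes of highest r per member. The members and lists were chosen with earlier results of these data known. The lists of fibroblast, adipocyte, leukocyte and erythrocyte markers had median log2 differences of -0.31, 0.09, -0.12 and -0.22. Figures used matplotlib 3.10.9 (Python 3.11.15).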

Additional observations from a re-analysis of the deposited data

How the results depend on the processing

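None of the 9 light chain and kinase probe sets passed an adjusted p of 0.05 under any of 27 alternatives, in limma or in the plain tests, whereas at an unadjusted p under 0.05 there were 3 (12.6% of all probe sets) with all animals in the limma fit with intensity trend. That count was 2 without the trend, where MYL2 had a p of 0.204, and 2 or 3 in the moderated paired fits. It was 2 to 4 with 1 animal left out. In the plain unpaired t-test it was 2, where MYL2 had a p of 0.0033 and MYL6B one of 0.0853. The plain paired t-tests gave counts of 1 to 3, and there the p of MYL6B lay between 0.0637 and 0.199. The share of all probe sets at that p is given for the main fit alone. The counts under the alternatives therefore have no background to be read against. Changing the filter, the intensity trend, the pairing or the test leaves the difference itself unaltered. A sign could change only with another offset, a normalization, array weights or an animal left out. Under all of those, MYL3, MYL2, MYL6B, MYLK2 and the brighter MYLPF probe set kept the sign of their difference. Over all 27 alternatives the adjusted p of MYL3 lay between 0.0733 and 0.714 and that of MYL6B between 0.163 and 0.704. Of the 243 differences 11 changed sign, all at MYL1, the dimmer MYLPF probe set, MYL4 or MYL6. The 243 include the main value repeated wherever only the filter, trend, pairing or test changed. MYL1 had -0.0029 after quantile normalization. The dimmer MYLPF probe set had 0.014 after median centring and 0.019 with array weights. Leaving out 1 animal gave values from -0.14 to 0.17 for that probe set, from -0.10 to 0.54 for MYL4 and from -0.32 to 0.064 for MYL6. Among all probe sets the count past the threshold was 3; it was 0 with an offset of 1, with the dimmer 50% left out and in the plain unpaired test, 10 with array weights and 0 to 15 with 1 animal left out. No label pairs the animals; under the 6 possible matchings the moderated paired fit called 0 to 7 probe sets and the plain paired test 0 to 1. The cause of these shifts was not tested.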
